A study of Gallus gallus with 9 samples.

Results

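The genes described here are the cell cycle and DNA replication genes of adult hen liver. A list of 45 gene names was matched by exact symbol to the gene annotation of the count table, and 43 of the names matched 45 of its 22082 loci. The kinase gene CDK1 and the spindle gene HMMR had no match by symbol and were not analysed here, while CENPF and ASPM each matched 2 loci. Of these 45 loci, 41 had more than 1 CPM (counts per 1e6 counts of the library) in at least 3 of the 9 libraries and entered the tests, as did 12324 loci of the whole table. They divide into 9 replication genes and 32 mitotic loci, the latter covering chromosome condensation, cyclins and kinases, the kinetochore and its checkpoint, the spindle, cytokinesis and the marker MKI67. The remaining 4 (TTK, KIF18A, NUF2 and MELK) were below this filter and are given by their counts.

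Liver RNA was sequenced from 9 Isa Brown laying hens of 55 weeks of age, 3 in each of 3 groups. In the albumen-deprived group, 3 ml of albumen was exchanged for saline through a drilled hole after 1 day of incubation. The sham-manipulated group underwent the procedure with neither removal nor injection, and the non-manipulated group was left untreated. All birds were of the same layer stock and were incubated and reared under the same conditions, and each library comes from 1 hen as a biological replicate. Values are listed below in the order of replicates 1, 2 and 3 of a group, and these numbers are those of the sample titles.

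A cell that divides first licenses its origins with the MCM helicase, makes deoxynucleotides through ribonucleotide reductase and thymidylate synthase, and copies its DNA around the sliding clamp PCNA. It then switches to a mitotic program in which cyclin-dependent kinases, the condensins, the kinetochore and the kinesins pack, attach and separate the chromosomes before the cleavage furrow divides the cell. Adult hepatocytes are mostly quiescent and re-enter the cycle after injury or loss of tissue, while blood-derived and stromal cells of the liver can also divide. Transcripts of the mitotic genes are therefore read as a measure of how many cells of a tissue are cycling, although in a bulk sample fewer cycling cells and less RNA per cycling cell cannot be told apart.

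The libraries held between 13720872 and 21747636 counts, so that 1 CPM stands for 13.7 to 21.7 counts and a gene near this level rests on few counts per hen. The scaling factors (TMM, trimmed mean of M-values) ran from 0.914 to 1.12. The library of sham-manipulated replicate 1, which recurs throughout the results, had the highest factor and an ordinary depth of 15496284 counts. Its 10 largest loci took 33.5% of the counts, the lowest share of the 9 libraries, of which the highest was 39.0%.

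Most of these genes were near the lower end of what was measured in the liver. Their median level, as reads per kilobase and scaled library (RPKM, CPM divided by locus length in kilobases), was 0.976 over the 9 hens, against 4.00 for all loci tested, and 39 of the 41 lay below that overall median. PCNA, the clamp of the replication fork, was the clear exception at 30.1 RPKM. The next highest were CKS1B at 8.47 RPKM and BUB1 at 3.97 RPKM. At the other end stood CENPF, a large kinetochore protein gene (0.274 RPKM), ANLN, the gene of the furrow scaffold anillin (0.290 RPKM), and KIF15, a spindle kinesin gene (0.322 RPKM). The replication genes had a median of 1.13 RPKM and the mitotic loci 0.827 RPKM.

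A single hen stood apart for nearly all of them. Sham-manipulated replicate 1 had the highest CPM of the 9 hens at 40 of the 41 loci, while it was the highest hen at 15.3% of all loci tested. At 35 loci it had 2-fold or more the median of the other 8 hens, and at 28 loci 3-fold or more, against 3.16% and 1.14% of all loci. Its median excess over the other hens was 3.58-fold across the members, with a range from 1.17 to 9.04, and 1.00-fold across all loci. The locus at which another hen was highest was the minus-strand ASPM locus. The summed level of all 45 matched loci, which includes the 4 below the filter, was 448 CPM in this hen. It was 119, 138 and 189 CPM in the non-manipulated hens, 153 and 143 CPM in the other sham-manipulated hens and 156, 156 and 157 CPM in the albumen-deprived hens. These are descriptions of 1 library that was singled out with its values known, and they carry no test.

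**Figure D1:**
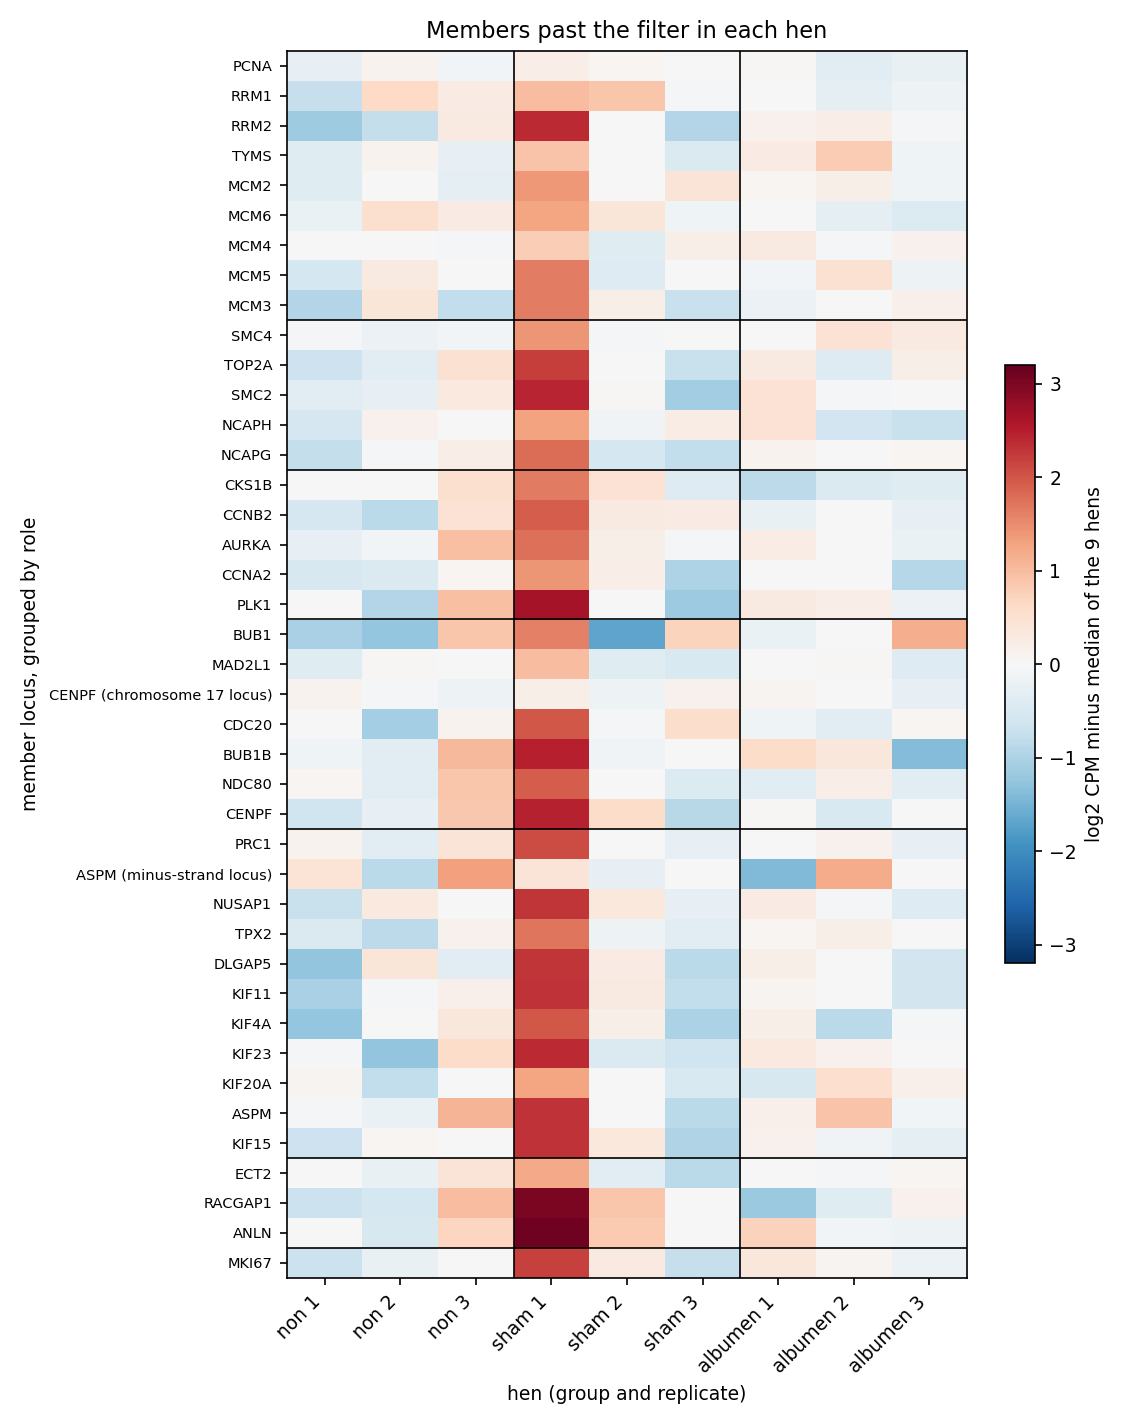
Log2 CPM of the 41 loci past the filter (rows, grouped by role with replication genes at the top) in the 9 hens (columns), each minus the median of the locus over the 9 hens, with non, sham and albumen as short names of the groups. The column of sham-manipulated replicate 1 holds the highest value in 40 of the 41 rows, while the other 8 columns are paler.

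A score was formed for each hen as the mean, over the 41 loci, of log2 CPM minus the 9-hen mean of that locus. It was -0.49, -0.34 and 0.18 in the non-manipulated hens, 1.59, -0.08 and -0.45 in the sham-manipulated hens and -0.09, -0.08 and -0.26 in the albumen-deprived hens. The albumen-deprived hens were thus close together, with a mean of -0.14 ± 0.10 (SD, n = 3), and lay inside the range of both other groups. The mean was -0.21 ± 0.35 in the non-manipulated and 0.36 ± 1.09 in the sham-manipulated hens, with 1 hen far above the other 2 in the latter. Among the other 8 hens, non-manipulated replicate 3 had the highest score and was the highest of the 8 at 17 of the 41 loci, against 10.8% of all loci. Under 7 other ways to form the score, that of sham-manipulated replicate 1 stayed between 1.41 and 1.79 and the highest of the other 8 between 0.13 and 0.38.

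The replication genes and the mitotic loci were then scored apart. Sham-manipulated replicate 1 was highest on both, with 1.13 for the 9 replication genes and 1.72 for the 32 mitotic loci. Its mitotic score exceeded its replication score by 0.59, where the pooled SD within groups of this difference was 0.38. Non-manipulated replicate 3 had a difference of 0.42, made of a replication score of -0.15 and a mitotic score of 0.27. Non-manipulated replicate 2 had the opposite order, with 0.06 for replication and -0.45 for mitosis, a difference of -0.51. The albumen-deprived hens differed little, at -0.08, -0.09 and -0.08. The excess of sham-manipulated replicate 1 over the others in the difference was therefore small beside its excess in either score.

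**Figure D2:**
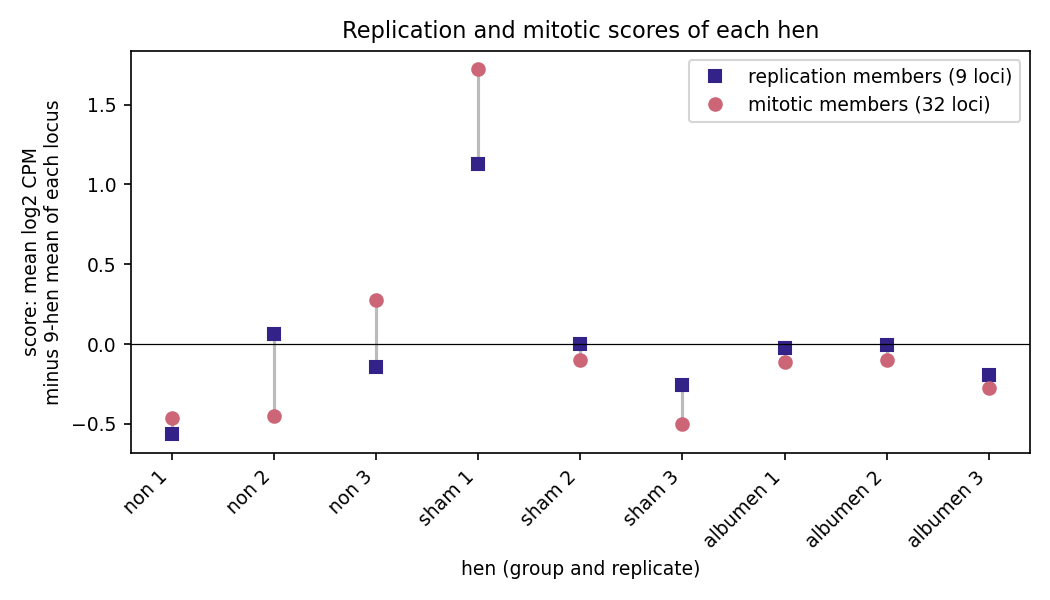
Replication score (squares, 9 loci) and mitotic score (circles, 32 loci) of each hen, as mean log2 CPM minus the 9-hen mean of each locus, with a grey line joining both scores of a hen. Sham-manipulated replicate 1 is the highest hen on both, at 1.13 and 1.72, and the other 8 hens lie between -0.57 and 0.27.

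Genes of DNA replication had the smaller excess in sham-manipulated replicate 1, with a median of 2.50-fold, and PCNA had the least of them. PCNA (chr22:334052-336642 of the Galgal4 build, 6 exons) had 20.9, 27.3 and 23.5 CPM in the non-manipulated hens, 29.3, 26.0 and 25.1 CPM in the sham-manipulated hens and 25.6, 19.7 and 21.4 CPM in the albumen-deprived hens. The 3 groups overlapped, the highest hen exceeded the median of the other 8 by 1.20-fold, and the range among these 8 was 1.38-fold.

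The MCM2 to MCM6 genes, which encode subunits of the helicase that is loaded on origins, were at low levels in the other hens, among which they ranged from 1.57-fold (MCM4) to 2.51-fold (MCM3), against a median of 1.70-fold for all loci. MCM2 (chr12:9725752-9737075) had 2.65, 3.47 and 2.80 CPM in the non-manipulated hens, 9.14, 3.42 and 4.61 CPM in the sham-manipulated hens and 3.62, 3.93 and 3.15 CPM in the albumen-deprived hens. MCM3 had 0.958, 2.40 and 1.06 CPM in the non-manipulated hens, 5.67, 2.08 and 1.12 CPM in the sham-manipulated hens and 1.61, 1.82 and 2.04 CPM in the albumen-deprived hens. In both genes sham-manipulated replicate 1 was the highest hen, by 2.65-fold for MCM2 and by 3.30-fold for MCM3 over the median of the others, and the groups overlapped. MCM4 had 3.68, 3.73 and 3.64 CPM in the non-manipulated hens, 6.48, 2.87 and 4.28 CPM in the sham-manipulated hens and 4.52, 3.65 and 4.14 CPM in the albumen-deprived hens. With 1.75-fold it had the least excess of the 5 helicase genes in that hen, and the non-manipulated hens were nearly equal at 3.69 ± 0.0472 CPM (SD, n = 3). MCM5 had 1.25, 2.27 and 1.85 CPM in the non-manipulated hens, 5.78, 1.39 and 1.84 CPM in the sham-manipulated hens and 1.74, 2.57 and 1.64 CPM in the albumen-deprived hens. MCM6 had 3.46, 5.67 and 4.82 CPM in the non-manipulated hens, 9.54, 5.20 and 3.62 CPM in the sham-manipulated hens and 4.00, 3.31 and 2.96 CPM in the albumen-deprived hens. Their excess in sham-manipulated replicate 1 was 3.22-fold for MCM5 and 2.50-fold for MCM6, and the lowest value of MCM6 was in an albumen-deprived hen.

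The genes of deoxynucleotide supply did not share 1 pattern. RRM1, the large subunit of ribonucleotide reductase, had 4.57, 11.9 and 9.07 CPM in the non-manipulated hens, 15.0, 14.1 and 7.38 CPM in the sham-manipulated hens and 7.62, 6.27 and 6.77 CPM in the albumen-deprived hens. Its values in sham-manipulated replicates 1 and 2 were close, so that sham-manipulated replicate 1 exceeded the next hen by 1.06-fold only, and the lowest hen was a non-manipulated one. RRM2 encodes the small subunit, which is made in S phase and limits the enzyme, and was chosen here after its values were seen. It had 1.03, 1.33 and 2.80 CPM in the non-manipulated hens, 12.0, 2.28 and 1.19 CPM in the sham-manipulated hens and 2.52, 2.62 and 2.17 CPM in the albumen-deprived hens, and its excess in sham-manipulated replicate 1 was 5.38-fold over the median and 4.28-fold over the next hen, the largest of the replication genes. TYMS, the thymidylate synthase gene, was 1.96-fold over the median in the same hen but only 1.07-fold over albumen-deprived replicate 2.

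Among the cyclins and kinases the median excess in sham-manipulated replicate 1 was 3.58-fold, and the range over 5 loci was from 3.09 (CCNA2, the cyclin of S and G2 phase) to 6.38 (PLK1, the polo kinase of mitotic entry). CKS1B (chr25:1283199-1283700, 2 exons) encodes a small subunit that binds cyclin-dependent kinases, and the study followed it further because of its difference in these libraries. It had 3.02, 3.00 and 4.26 CPM in the non-manipulated hens, 9.49, 4.11 and 2.24 CPM in the sham-manipulated hens and 1.68, 2.17 and 2.30 CPM in the albumen-deprived hens. The albumen-deprived hens were the lowest as a group, at a mean of 2.05 ± 0.327 CPM (SD, n = 3) against 3.43 ± 0.719 in the non-manipulated and 5.28 ± 3.76 in the sham-manipulated hens. They did not overlap the non-manipulated hens, while sham-manipulated replicate 3 at 2.24 CPM lay within their range. CCNB2, a B-type cyclin gene of mitotic entry, had 1.99, 1.60 and 4.03 CPM in the non-manipulated hens, 11.1, 3.57 and 3.49 CPM in the sham-manipulated hens and 2.45, 2.91 and 2.43 CPM in the albumen-deprived hens. Here all 3 albumen-deprived hens lay below all 3 sham-manipulated hens and within the range of the non-manipulated hens. MELK, a kinase gene below the filter, had 15 counts in sham-manipulated replicate 1 and 0 to 5 counts in each other hen.

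Chromosome condensation was represented by TOP2A, SMC2, SMC4, NCAPG and NCAPH, which encode the decatenating topoisomerase and subunits of condensin. TOP2A (chr27:4416656-4434189, 34 exons) had 3.24, 4.07 and 7.22 CPM in the non-manipulated hens, 23.8, 5.16 and 3.16 CPM in the sham-manipulated hens and 6.33, 3.88 and 5.85 CPM in the albumen-deprived hens. The other 8 hens ranged 2.28-fold, and sham-manipulated replicate 1 was 3.30-fold over the highest of them. The condensin ATPase gene SMC2 had 17.9 CPM in that hen and 1.52 to 4.52 CPM in the others, and its partner SMC4 10.5 CPM against 3.47 to 5.47 CPM. The 5 genes of this class were all highest in this hen, with excesses from 2.54 (NCAPH) to 5.52 (SMC2). Reads on SMC4 may be affected by 2 further loci annotated over it on the same strand.

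Kinetochore and checkpoint genes contained the most uneven member. BUB1, the checkpoint kinase gene (chr3:3037097-3057283), had 7.22, 6.33 and 27.4 CPM in the non-manipulated hens, 45.8, 4.66 and 24.6 CPM in the sham-manipulated hens and 12.8, 14.9 and 33.4 CPM in the albumen-deprived hens. High values were found in sham-manipulated replicate 1 and in the hen numbered 3 of each group, and the other 5 hens were at 14.9 CPM or less. This made a range of 7.16-fold among the 8 hens other than sham-manipulated replicate 1, against a median of 2.48-fold for the members and 1.70-fold for all loci. BUB1B, which encodes the related checkpoint protein BubR1, did not follow that order, with 2.86, 1.38 and 0.526 CPM in the hens numbered 3. CDC20, the activator of the anaphase-promoting complex, had 1.69, 0.800 and 1.85 CPM in the non-manipulated hens, 6.77, 1.64 and 2.50 CPM in the sham-manipulated hens and 1.55, 1.31 and 1.77 CPM in the albumen-deprived hens. It was 4.06-fold over the median in sham-manipulated replicate 1, and 1 locus on the opposite strand overlaps it, whose reads the unstranded libraries cannot separate. CENPF on chromosome 3 (chr3:20356020-20391564) had 1.18, 1.53 and 3.36 CPM in the non-manipulated hens, 10.2, 2.78 and 0.988 CPM in the sham-manipulated hens and 1.87, 1.31 and 1.84 CPM in the albumen-deprived hens. Its excess of 6.04-fold was the largest of this class among loci past the filter. NUF2, a subunit of the NDC80 complex that holds microtubules at the kinetochore, had 68 counts in sham-manipulated replicate 1 and 6 to 12 counts elsewhere. TTK, the checkpoint kinase Mps1, had 77 counts there and 9 to 19 counts elsewhere.

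The spindle genes had a median excess of 4.95-fold in sham-manipulated replicate 1 over 11 loci, 10 of them highest in that hen. KIF15, a plus-end kinesin gene (chr2:43768481-43804535), had 0.811, 1.33 and 1.29 CPM in the non-manipulated hens, 6.36, 1.64 and 0.659 CPM in the sham-manipulated hens and 1.42, 1.20 and 1.05 CPM in the albumen-deprived hens. The other hens of all groups lay between 0.659 and 1.64 CPM and overlapped. KIF11, the motor that pushes the spindle poles apart, was at 14.2 CPM in that hen against 1.40 to 3.47 CPM, and DLGAP5, a microtubule stabiliser gene, at 11.2 CPM against 0.958 to 3.00 CPM. KIF20A, a kinesin gene of the central spindle, had the smallest excess of the kinesins at 2.43-fold, and 1 locus on the opposite strand overlaps it.

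Cytokinesis held both genes with the largest excess. RACGAP1, a subunit of centralspindlin, which positions the cleavage furrow, had 0.368, 0.400 and 1.18 CPM in the non-manipulated hens, 4.74, 1.09 and 0.593 CPM in the sham-manipulated hens and 0.258, 0.456 and 0.657 CPM in the albumen-deprived hens. These values rest on 82 counts in sham-manipulated replicate 1 and 4 to 22 counts in each other hen. ANLN (chr2:47314675-47343598) had 0.663, 0.467 and 1.06 CPM in the non-manipulated hens, 5.78, 1.19 and 0.659 CPM in the sham-manipulated hens and 1.10, 0.627 and 0.591 CPM in the albumen-deprived hens. Sham-manipulated replicate 1 exceeded the median of the other hens by 9.04-fold for RACGAP1 and 8.75-fold for ANLN, and sham-manipulated replicate 2 was the second highest hen for ANLN. ECT2, the exchange factor gene that acts with RACGAP1, had a much smaller excess of 2.38-fold.

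MKI67 encodes the Ki-67 protein that coats mitotic chromosomes and is the usual histological marker of cycling cells. At chr6:32890714-32910556, with 16 exons, it had 3.98, 5.40 and 6.38 CPM in the non-manipulated hens, 29.0, 7.78 and 3.82 CPM in the sham-manipulated hens and 8.27, 6.79 and 5.59 CPM in the albumen-deprived hens. The other 8 hens ranged 2.16-fold, and sham-manipulated replicate 1 was 3.51-fold over the highest of them. Means were 5.25 ± 1.21 CPM in the non-manipulated, 13.5 ± 13.6 CPM in the sham-manipulated and 6.88 ± 1.34 CPM in the albumen-deprived hens (SD, n = 3), so that the SD of the sham-manipulated group was as large as its mean.

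**Figure D3:**
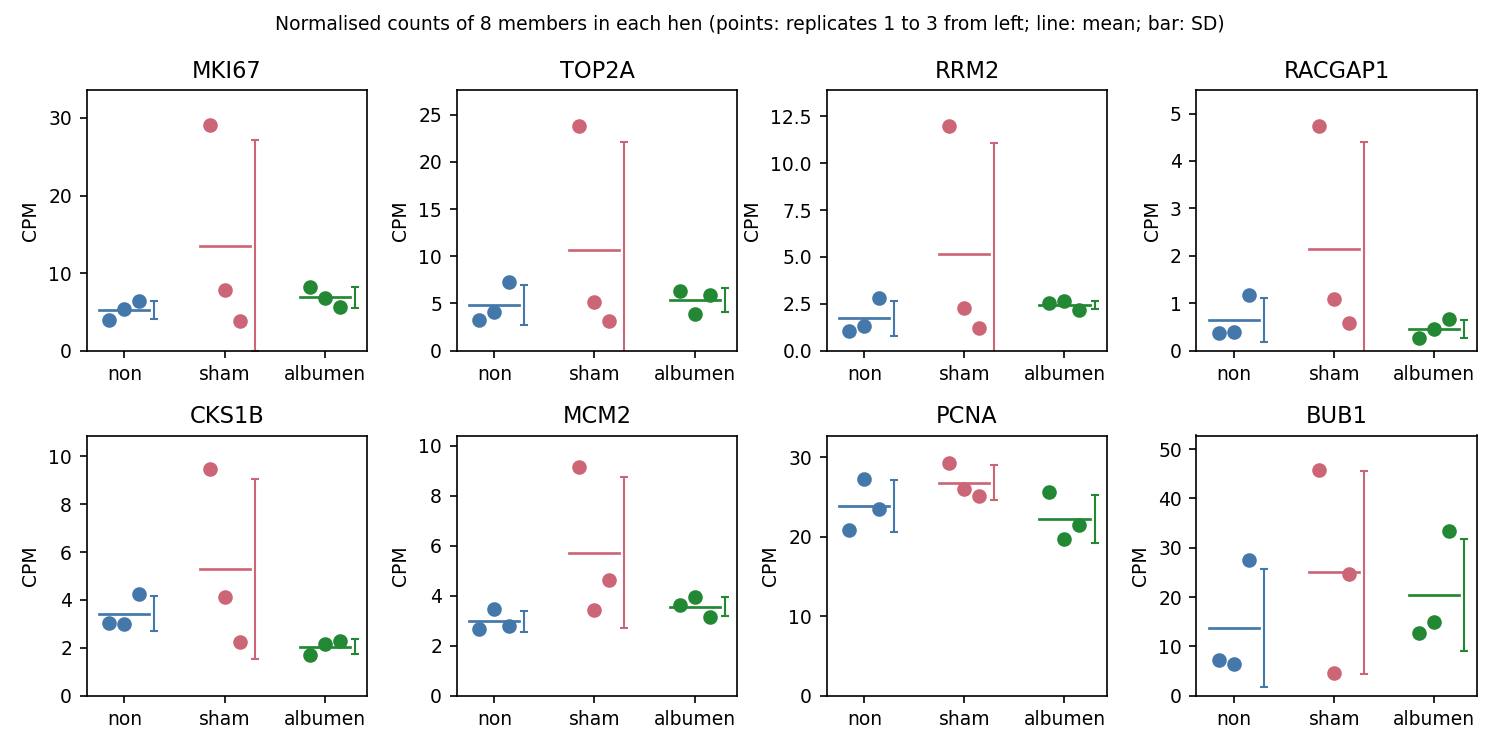
CPM of 8 members in each hen, with non, sham and albumen as short names of the groups, replicates 1 to 3 from left to right as points, the group mean as a line and 1 SD on each side as a bar beside it, cut at 0 where the SD exceeds the mean. The left-hand sham-manipulated point is far above the rest for MKI67 (29.0 CPM), TOP2A (23.8 CPM) and RRM2 (12.0 CPM), close to the rest for PCNA (29.3 CPM), and joined by the right-hand point of each group for BUB1.

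Loci of lower level tended to have the larger excess in that hen. Across the 41 loci, the median RPKM of the other 8 hens and the excess of sham-manipulated replicate 1 had a Spearman coefficient of -0.61, and of -0.62 across the 32 mitotic loci. The loci are not independent and both measures share the values of the 8 hens, so this is a description. PCNA at 30.1 RPKM and 1.20-fold sits at one end, and ANLN at 0.142 RPKM and 8.75-fold at the other. CKS1B departs from this order, with 6.27 RPKM in the other hens and an excess of 3.58-fold. In sham-manipulated replicate 1 the median member was at 2.33 RPKM, and in the other 8 hens at 0.736 RPKM, so even there most remained below the median of all loci.

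**Figure D4:**
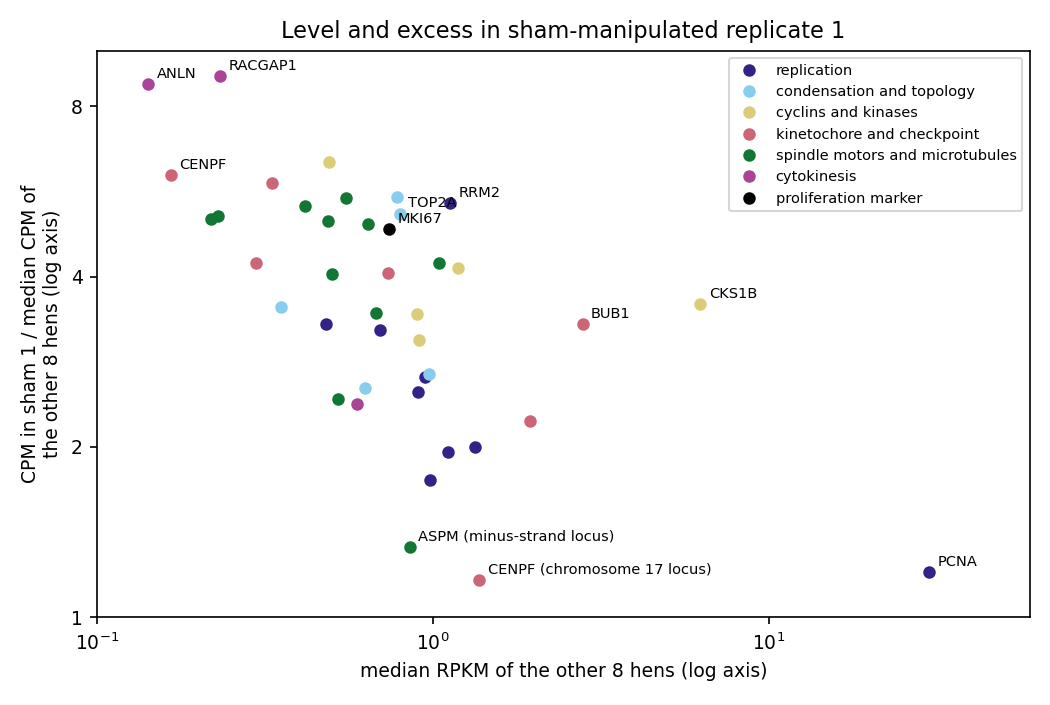
Excess of sham-manipulated replicate 1 (CPM of this hen divided by the median CPM of the other 8, log axis) against the median RPKM of the other 8 hens (log axis), 1 point per locus past the filter, coloured by role. Points fall from ANLN and RACGAP1 at the upper left (8.75-fold and 9.04-fold) to PCNA at the lower right (1.20-fold), with a Spearman coefficient of -0.61 over 41 loci.

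The comparison of sham-manipulated with non-manipulated hens asks what opening the egg does without removal of albumen. The members were higher on average in the sham-manipulated hens, and no member or other locus had an adjusted p under 0.05. Their median log2-fold change was 0.91, with 40 of the 41 above 0, against a median of 0.01 and 52.0% above 0 over all loci. With edgeR's quasi-likelihood F-test, 0 members had a Benjamini-Hochberg adjusted p under 0.05 (lowest 0.906), as did 0 of all 12324 loci (lowest 0.109), so this count is not particular to the members, and 0 passed the study's cut-off (P under 0.001 and a log2-fold change over 1, passed by 0.0649% of all loci), and both counts of members were 0 under DESeq2's Wald test and edgeR's likelihood ratio test, where 10 and 6 of all loci had an adjusted p under 0.05. At an unadjusted P under 0.05 they were 4 higher and 0 lower, where 2.3% of all loci were higher and 2.98% lower. These 4 were MCM2 with a log2-fold change of 0.94 (SE 0.34), CDC20 with 1.32 (SE 0.53), CCNB2 with 1.24 (SE 0.50) and ANLN with 1.77 (SE 0.76), each with an edgeR adjusted p of 0.906. ANLN had the largest change of all members, and MKI67 with 1.36 (SE 0.61) did not reach that threshold. The replication genes had a median of 0.51 and the mitotic loci of 1.01. In each of the 4 genes the groups overlapped. SMC4 was the 1 member whose sham-manipulated hens (10.5, 3.82 and 3.95 CPM) all lay above the non-manipulated hens (3.47 to 3.76 CPM), and 0 members lay below them, against 4.78% and 4.93% of all loci.

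These differences rested on the same hen. Without sham-manipulated replicate 1 the median log2-fold change of the members was -0.04, 20 of the 41 were above 0, and none of the 4 genes kept a P under 0.05. MCM2 then had 0.42, CDC20 0.49, CCNB2 0.46 and ANLN 0.33 on the log2 scale. In that fit 0 members were higher and 1 was lower at P under 0.05 (ECT2, log2-fold change -0.69), where 1.7% of all loci were higher and 2.69% lower. Without sham-manipulated replicate 3, 22 members were higher with P under 0.05, against 2.61% of all loci, and without replicate 2 it was 12 members, against 3.29%. Without non-manipulated replicate 1 it was 0, against 1.61%.

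The comparison of albumen-deprived with sham-manipulated hens addresses the exchange of albumen for saline, in which removal and injection cannot be told apart. It shares the 3 sham-manipulated hens with the comparison above. The members were lower on average in the albumen-deprived hens, with a median log2-fold change of -0.85 and 2 of the 41 above 0, against a median of -0.01 and 47.8% above 0 over all loci. By edgeR's quasi-likelihood F-test 0 members had an adjusted p under 0.05 (lowest 0.609, for CKS1B), as did 0 of all loci (lowest 0.226), and 0 passed the cut-off (0.105% of all loci). Both counts of members were also 0 under DESeq2's Wald test and the likelihood ratio test, where 42 and 31 of the 12324 loci had an adjusted p under 0.05. At an unadjusted P under 0.05, 7 members were lower and 0 higher, where 3.02% of all loci were lower and 4.11% higher. CKS1B had a log2-fold change of -1.36 (SE 0.46), which is not independent evidence since the study picked this gene on these libraries. The study, with its own normalization and test, listed CKS1B as past its cut-off in this comparison. It also measured the gene by qPCR in more hens of each group and reported the same direction there, at a looser threshold. That set of hens was an enlargement of the sequenced one, so it is not independent of these libraries. In the qPCR the albumen-deprived and non-manipulated hens had nearly equal levels of CKS1B. RACGAP1 was also among the genes that the study called differentially expressed in these libraries, at looser criteria, so it is not independent evidence either. Its change of -2.21 (SE 0.82) was the largest of the members. Next came ANLN with -1.72 (SE 0.75), CDC20 with -1.23 (SE 0.52) and CCNB2 with -1.22 (SE 0.50), and the replication genes MCM6 with -0.84 (SE 0.35) and RRM1 with -0.82 (SE 0.35). The adjusted p of these 7 genes in edgeR ran from 0.609 to 0.694. CCNB2 was the 1 member whose albumen-deprived hens all lay lower, and 0 had them all higher, against 6% and 6.75% of all loci.

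Most of this difference was again that of 1 hen. Without sham-manipulated replicate 1, 0 of the 41 had a P under 0.05 (lowest adjusted p 0.786 in edgeR), where 3.83% of all loci were higher and 2.77% lower, and the median log2-fold change was 0.09 with 27 of the 41 above 0. CKS1B then had -0.64 and RACGAP1 -0.89. Of the 7, RRM1 moved least, from -0.82 to -0.65, and also had no P under 0.05 without sham-manipulated replicate 2 (-0.71), while MKI67 went from -0.98 to 0.24 and KIF15 from -1.24 to 0.07. Without sham-manipulated replicate 3, 21 members were lower with P under 0.05, against 3.19% of all loci. The count was 3, 1 and 2 without albumen-deprived replicates 1, 2 and 3, against 2.00%, 2.18% and 2.93% of all loci, and 3 without non-manipulated replicate 3, against 2.68%.

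Albumen-deprived and non-manipulated hens, which were compared without the sham-manipulated hens except for the shared estimate of spread, differed little in these genes. The median log2-fold change was 0.04 with 23 of the 41 above 0, and the range was from -0.74 (CKS1B) to 0.56 (BUB1). By edgeR's quasi-likelihood F-test 0 members had an adjusted p under 0.05, as did 0 of all loci (lowest 0.0640), and 0 passed the cut-off (0.0487% of all loci). At an unadjusted P under 0.05 they were 0 higher and 0 lower, where 1.66% of all loci were higher and 1.57% lower. DESeq2's Wald test and the likelihood ratio test also gave 0 members at either threshold, and 8 and 6 of all loci at an adjusted p under 0.05. CKS1B, with a log2-fold change of -0.74 (SE 0.47), had the lowest P, and in the fit without sham-manipulated replicate 1 it was the 1 member with a P under 0.05 (lower, -0.75), where 1.8% of all loci were lower and 1.68% higher. With all 9 libraries MKI67 had 0.38 (SE 0.61), TOP2A 0.13 (SE 0.67), PCNA -0.10 (SE 0.14) and MCM2 0.26 (SE 0.35), each smaller than its SE. These SEs include the spread of the sham-manipulated hens. In the fit without sham-manipulated replicate 1, MKI67 with 0.38 (SE 0.30) and MCM2 with 0.26 (SE 0.22) exceeded their SE. TOP2A with 0.13 (SE 0.35) and PCNA with -0.11 (SE 0.14) did not. The hens did not overlap for CKS1B, lower in the albumen-deprived hens as for 3.84% of all loci, and for SMC4, higher with 4.00, 5.47 and 4.80 CPM against 3.76, 3.47 and 3.75 CPM, as for 4.55% of all loci.

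**Figure D5:**
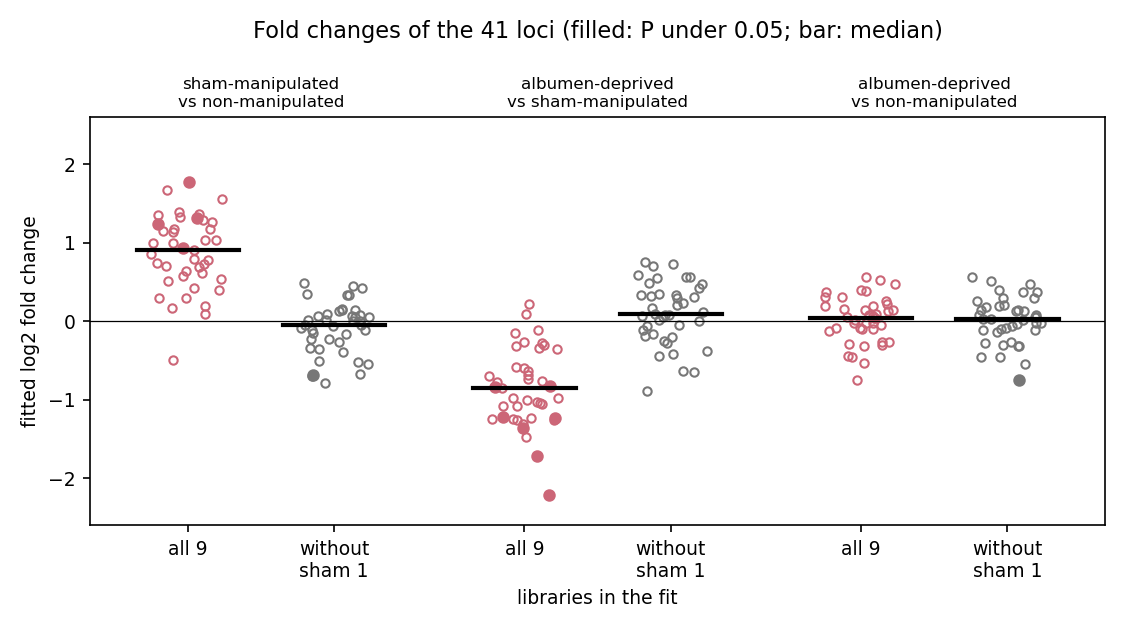
Fitted log2-fold changes of the 41 loci in the 3 comparisons, with all 9 libraries (red) and without sham-manipulated replicate 1 (grey), filled where the unadjusted P of the quasi-likelihood F-test was under 0.05, with a bar at the median. The medians of 0.91 and -0.85 in the comparisons with sham-manipulated hens become -0.04 and 0.09 without this hen, while the third stays near 0 at 0.04 and 0.03.

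Other genes of the pathway, taken from 4 lists, followed the same hen to different degrees. Of 48 further mitotic genes, 38 were matched and 22 loci passed the filter, of which 18 were highest in sham-manipulated replicate 1 and 14 had 2-fold or more the median of the others, with a median excess of 2.52-fold. Of all loci, 15.3% were highest in that hen and 3.16% reached 2-fold. The largest excesses of the 22 were those of CCNB3, a B-type cyclin gene (6.12-fold), PBK, a mitotic kinase gene (5.24-fold), and CENPE, a kinetochore kinesin gene (4.82-fold). The 3 of highest level did not share this, as ESPL1, the separase gene, had 1.15-fold, CDCA8, the borealin gene, 1.43-fold and CKAP5, a microtubule polymerase gene, 1.17-fold. None of the 22 had an unadjusted P under 0.05 in any of the 3 comparisons, and the lowest adjusted p was 0.770. Of all loci, 5.28% had such a P between sham-manipulated and non-manipulated hens. The share was 3.23% between albumen-deprived and non-manipulated hens and 7.13% between albumen-deprived and sham-manipulated hens. With 22 loci, a count of 0 beside these shares says little about them.

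Of 46 further replication genes, 36 were matched and 32 loci passed, with a median excess of 1.29-fold in sham-manipulated replicate 1. Of these 32 loci, 16 were highest in that hen, where 15.3% of all loci were, and 4 reached 2-fold, where 3.16% did. The 4 were CDT1, the licensing factor gene (3.84-fold), CDC45, a part of the active helicase (3.54-fold), TK1, the cytosolic thymidine kinase gene (3.07-fold), and CLSPN, the checkpoint adaptor gene (2.21-fold). TK1 had 8.03, 5.33 and 9.74 CPM in the non-manipulated hens, 21.9, 5.16 and 11.5 CPM in the sham-manipulated hens and 8.98, 6.27 and 6.11 CPM in the albumen-deprived hens. GINS4, a subunit gene of the GINS complex of the active helicase, had 21.6 RPKM and RPA2, a subunit gene of the single-strand binding protein, 9.88 RPKM, with excesses of 1.23 and 1.50. At an unadjusted P under 0.05 POLD3, a subunit gene of DNA polymerase delta, was lower in sham-manipulated than in non-manipulated hens (log2-fold change -0.37, SE 0.12), and GINS4 (-0.39, SE 0.13) and ORC4, a gene of the origin recognition complex (-0.58, SE 0.24), were lower in the albumen-deprived group than in the sham-manipulated group, with edgeR adjusted p of 0.606 or more. These were 1 and 2 of the 32 loci, where 2.98% and 3.02% of all loci were lower.

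The G1 cyclins, their kinases and the E2F factors, which act before S phase, had no median excess in that hen. Of 32 names 27 were matched and 24 loci passed, with a median excess of 0.984-fold. Among these 24, 8 were highest in sham-manipulated replicate 1, where 15.3% of all loci were. The exceptions at 2-fold or more were E2F8, an E2F repressor gene that peaks in S phase (3.57-fold), and CDK2, the S phase kinase gene (2.56-fold). Of all loci, 3.16% reached 2-fold. E2F8 had 4.97 CPM in that hen and 1.03 to 1.58 CPM in the others, and differed by a log2-fold change of 1.12 (SE 0.49) between sham-manipulated and non-manipulated hens, with an unadjusted P under 0.05. It was the 1 locus of the 24 that was higher there, where 2.3% of all loci were. E2F1, an activator of S phase genes, had 7.75, 8.38 and 9.07 CPM in the albumen-deprived and 13.7, 12.2 and 10.3 CPM in the sham-manipulated hens, a log2-fold change of -0.53 (SE 0.19) between groups that did not overlap, also with an unadjusted P under 0.05. In that comparison 3.02% of all loci were lower at this threshold, and at 6% the albumen-deprived hens all lay lower. CDK6, LIN52 and CCND3 had the highest levels, at 9.99, 8.80 and 6.95 RPKM, with excesses of 1.24, 0.943 and 0.842.

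Inhibitors of the cell cycle had no median excess in that hen. Of 24 names 16 were matched, to 24 loci, and 13 loci passed the filter, with a median excess of 0.961-fold. Among these 13, 2 were highest in sham-manipulated replicate 1, close to the 15.3% of all loci. BTG1, an antiproliferative gene, had the highest level at 80.5 RPKM, followed by BTG2 at 35.2 RPKM and GADD45B at 24.2 RPKM, and all 3 were highest in sham-manipulated replicate 2. CDKN2C, the gene of the CDK4 and CDK6 inhibitor p18, was the exception, with 5.84 CPM in sham-manipulated replicate 1 and 1.84 to 3.16 CPM in the others, a log2-fold change of 0.79 (SE 0.32) between sham-manipulated and non-manipulated hens and of -0.73 (SE 0.32) between albumen-deprived and sham-manipulated hens. RB1, the retinoblastoma gene, had 4.27, 6.40 and 6.33 CPM in the non-manipulated hens, 5.96, 7.04 and 5.01 CPM in the sham-manipulated hens and 4.58, 3.02 and 3.35 CPM in the albumen-deprived hens. The log2-fold change of the albumen-deprived group was -0.64 (SE 0.24) relative to the non-manipulated group and -0.72 (SE 0.24) relative to the sham-manipulated group, with edgeR adjusted p of 0.609 or more. CCNG2, a cyclin gene linked to cell cycle arrest, had 0.57 (SE 0.17) between albumen-deprived and sham-manipulated hens and -0.38 (SE 0.17) between sham-manipulated and non-manipulated hens. CDKN1B, the p27 gene, had 0.25 (SE 0.11) in the former comparison. These 4 inhibitor genes had unadjusted P-values under 0.05 in the comparisons given, and none an adjusted p under 0.561 in edgeR. Between albumen-deprived and sham-manipulated hens they were 2 higher and 2 lower of 13 loci, where 4.11% and 3.02% of all loci were called. Between sham-manipulated and non-manipulated hens 1 was higher and 1 lower, where 2.3% and 2.98% of all loci were. Between albumen-deprived and non-manipulated hens 1 was lower, where 1.57% were.

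Markers of cell types were read in the same hens. Hepatocyte markers were plainly present in all libraries, and their summed level was lowest in sham-manipulated replicate 1, at 157072 CPM against 173781 to 241765 CPM in the others. Single loci did not all follow the sum. Of 13 hepatocyte loci 3 were highest in that hen, where 15.3% of all loci were, and 2 had 2-fold or more the median of the others. Their median excess was 0.939-fold. Of 8 heterophil loci past the filter 7 were at 2-fold or more in that hen, against 3.16% of all loci. All 17 matched heterophil loci, past the filter or not, summed to 57.7 CPM there and to 61.4 and 19.0 CPM in the other sham-manipulated hens. This sum was 15.7 to 41.3 CPM in the non-manipulated and 13.5 to 20.7 CPM in the albumen-deprived hens. Macrophage markers summed to 2388 CPM in sham-manipulated replicate 1, 2117 and 2119 CPM in the other sham-manipulated hens, 957 to 2238 CPM in the non-manipulated and 1962 to 2129 CPM in the albumen-deprived hens, with 5 of 13 loci highest in it. Stellate cell and fibroblast markers summed to 566 CPM there, 333 and 357 CPM in the other sham-manipulated hens, 291 to 569 CPM in the non-manipulated and 360 to 401 CPM in the albumen-deprived hens, with 7 of 12 loci highest in it. The sums for T and NK cells (137 CPM), B and plasma cells (688 CPM), erythroid cells (45.8 CPM), thrombocytes (41.2 CPM), endothelium (647 CPM) and bile duct (53.9 CPM) lay within the range of the other 8 hens. In sham-manipulated replicate 1, CD8A, PAX5, TNFRSF13C, RHAG, HBG1, HBZ, HBAA and GAL3 were at 0 counts. Their counts in the other hens are not given here, so this is not read as a trait of that hen. Of 14 matched erythroid loci only 4 passed the filter. The part of any cell type in the level of the cell cycle genes was not tested.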

How the data were processed

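Liver RNA of 9 hens was sequenced as single-end, unstranded libraries in 1 lane. The authors aligned them to the Galgal4 build by TopHat (v2.0.8b), dropped secondary and poorly mapped alignments with SAMtools, joined gene models from Cufflinks (v2.1.1) to the known annotation and counted reads per locus in HTSeq (0.5.4p3), where reads of no locus or of more than 1 were dropped. They deposited these counts without normalization, with locus length and GC content in percent. The deposited FPKM values had passed the authors' correction for GC content and a quantile normalization, and were used here for 1 alternative score only, in which 44 member loci were found. The authors' table of comparisons (log2-fold changes, P-values, false discovery rates and DE calls) was not used.

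A locus needed over 1 CPM in 3 or more libraries, which 12324 had. After TMM scaling, all 9 libraries were fitted together with 1 coefficient for each group, the quasi-likelihood F-test of edgeR (4.0.16, R 4.3.3) was applied, and Benjamini-Hochberg adjustment ran over all loci. Standard errors are the log2-fold change divided by the square root of F. The common dispersion was 0.0630 and the residual degrees of freedom 6. Log2 CPM for the scores used a prior count of 2. Group and replicate came from the sample labels, and the chi-square per degree of freedom between libraries of a group was 31.0 or more, so no library was counted as a duplicate. The code was tested on simulated counts. P-values measure the spread among 3 hens a group, and counts cover counting error only, with 3 counts as the nominal floor. Values under that floor, as for MELK, were given as counted.

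The fits were repeated with size factors from DESeq2 (1.42.0), with full quantile normalization in 10 GC bins and between samples, without a filter, on the authors' loci, with the likelihood ratio test of edgeR, with the Wald test of DESeq2, on the compared groups only, with the replicate number as a block (once also with the quantile normalization), and with each library left out. A score from the deposited FPKM, as log2(FPKM + 0.1), and a score without BUB1, the chromosome 17 CENPF locus and the minus-strand ASPM locus were added after seeing the data. The members, the pathway and marker lists and the rules were chosen with earlier results of these data known. Genes named in full are CKS1B, each member with P under 0.05 in any comparison, the 3 highest and 3 lowest by mean RPKM, MKI67, TOP2A, PCNA and MCM2 to MCM6. Any other gene given by name was chosen after its values were seen, except pathway genes with P under 0.05 or among the 3 highest of their list, of which 1 is not reported here. Gene names are those of the count table.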

Additional observations from a re-analysis of the deposited data

How the results depend on the processing

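In every fit that was run, 0 members had an adjusted p under 0.05, where 0 to 42 of all loci did, and 0 passed the cut-off, and all log2-fold changes of the 8 genes with P under 0.05 kept their direction. Their P under 0.05 was often lost in the alternative fits. Between sham-manipulated and non-manipulated hens this held in 9 fits for ANLN, 6 for CCNB2, 4 for CDC20 and 3 for MCM2. Between albumen-deprived and sham-manipulated hens it held in 11 for ANLN, 9 for RRM1, 8 for MCM6 and 7 for CDC20. There it also held in 6 for CCNB2, 5 for RACGAP1 and 2 for CKS1B. The median of the members turned from 0.91 to -0.0412 (sham-manipulated against non-manipulated) and from -0.85 to 0.0920 (albumen-deprived against sham-manipulated) without sham-manipulated replicate 1. With 1 library left out in turn, these medians ran from -0.04 to 1.21 and from -1.19 to 0.09. The members with P under 0.05 then ran from 0 to 22 and from 0 to 21, and from 0 to 1 between albumen-deprived and non-manipulated hens. The loci past the cut-off ran from 4 to 13 (sham-manipulated against non-manipulated, 8 with all hens), from 10 to 24 (albumen-deprived against sham-manipulated, 13) and from 4 to 10 (albumen-deprived against non-manipulated, 6).

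The 4 members with P under 0.05 between sham-manipulated and non-manipulated hens became 9 with no filter, where 45 member loci were fitted. They became 9 with the likelihood ratio test, 10 with DESeq2 and 1 with these groups alone, each of 41 loci. All were higher, as were 2.01%, 1.91%, 2.03% and 1.66% of all loci in these fits, against 2.3% in the fit reported. The 7 between albumen-deprived and sham-manipulated hens became 4 with full quantile normalization and 4 with these groups alone. All were lower, as were 3.43% and 2.86% of all loci, against 3.02% in the fit reported. The 0 between albumen-deprived and non-manipulated hens became 1 with these groups alone, a lower one (1.81% of all loci were lower, against 1.57%). Loci past the cut-off became 33, 53 and 16 with the likelihood ratio test and 28, 45 and 16 with DESeq2, in the order sham-manipulated against non-manipulated, albumen-deprived against sham-manipulated and albumen-deprived against non-manipulated, and 22 of the second kind with no filter. The cause of these differences was not tested.

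Samples share only a replicate number. Of 9 pairs with the same number, 2 had a correlation of deviations over 0.1 (range -0.16 to 0.24), and 2 libraries correlated best with their own number. Between the hens numbered 3, the chi-square per degree of freedom was 20.0, 25.9 and 29.8, the lowest of all pairs of libraries. The correlations of these pairs were 0.24, 0.08 and 0.05. What these libraries may share was not tested. With a replicate block the members with P under 0.05 were 2 higher (sham-manipulated against non-manipulated, 1.95% of all loci) and 2 lower (albumen-deprived against sham-manipulated, 2.57%). The counts were the same with the quantile normalization added (2.28% and 3.02% of all loci). There the loci past the cut-off were 4 between sham-manipulated and non-manipulated hens. The few counts behind each gene limit the precision of single values.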

Other observations

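Both names that matched 2 loci gave loci that behaved unlike each other. The CENPF locus on chromosome 17 (chr17:8344384-8375840, plus strand) had 12.6, 11.3 and 10.6 CPM in the non-manipulated hens, 13.4, 10.5 and 12.9 CPM in the sham-manipulated hens and 12.5, 11.7 and 9.86 CPM in the albumen-deprived hens. It was thus nearly even, with 1.17-fold in sham-manipulated replicate 1, where the CENPF locus on chromosome 3 had 6.04-fold. Whether both belong to the same gene was not settled from the annotation used here.

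The minus-strand ASPM locus (chr8:2621201-2630184) overlaps the plus-strand ASPM locus (chr8:2593760-2627320), a gene of spindle pole focusing. It had 6.12, 2.47 and 11.1 CPM in the non-manipulated hens, 5.96, 3.72 and 4.48 CPM in the sham-manipulated hens and 1.68, 10.3 and 4.47 CPM in the albumen-deprived hens. Non-manipulated replicate 3 and albumen-deprived replicate 2 were highest, and the 8 hens other than sham-manipulated replicate 1 ranged 6.64-fold. The plus-strand locus had 13.9 CPM in sham-manipulated replicate 1 and 1.52 to 5.94 CPM elsewhere, with the same 2 hens next highest. The libraries do not mark strand, so reads in the shared stretch cannot be assigned to either.

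BUB1 was the other member with a wide range. Its counts were 490, 374 and 508 in non-manipulated, sham-manipulated and albumen-deprived replicate 3, and 791 in sham-manipulated replicate 1. The other 5 hens had 94 to 262 counts. Leaving out BUB1 and both loci above moved the score of sham-manipulated replicate 1 from 1.59 to 1.66.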
